A study of Mus musculus with 12 samples.

Results

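Interferon-stimulated genes are the genes that a cell switches on when interferon binds its receptors, and 35 of them, chosen by gene symbol, were followed in RNA-seq of mouse bile duct organoids. All 35 symbols matched an identifier among the 53700 in the deposited count table. The organoids were intrahepatic cholangiocyte organoids, which are hollow cysts of bile duct epithelium cultured in Matrigel. They came from 6 mice, each of which gave a culture from the hilum of the liver, where the large ducts lie, and a culture from its periphery. The 4 groups were Ndr hilar (Jag1 Ndr/Ndr, mice 1219, 1220 and 1224), WT hilar (Jag1 +/+, mice 1221, 1223 and 1225), Ndr peripheral and WT peripheral, the peripheral cultures from the same mice, with 3 libraries in each. Ndr is an allele of Jag1, a ligand of the Notch receptors whose human counterpart is mutated in most cases of Alagille syndrome, a disorder with too few bile ducts. The cultures were untreated and RNA was taken at passage 5, and the labels used here give no age, sex or strain. The design asks whether gene expression differed by genotype, by liver region, and by genotype in 1 region more than in the other.

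Type I and type III interferons signal through paired receptors to the kinases JAK1 and TYK2, which phosphorylate STAT proteins, STAT2 among them. STAT2 joins IRF9 in a complex that binds the interferon-stimulated response element (ISRE) in the promoters of its target genes. Epithelial cells keep a low tonic expression of these targets without added interferon, and the products include the RNA-binding IFIT proteins, the OAS enzymes that make a messenger for RNase L, the ubiquitin-like modifier ISG15 and the GTPases of the GBP and MX families. Several members (STAT2, IRF9, IRF7) are themselves parts of the pathway, so the genes feed back on their own induction.

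Promoters of 5 members are shown because they carry the contrast within the group. Isg15, Ifit1, Oas3 and Irf7 varied together across the libraries, and Ifit2 did not. The sequences are RefSeq windows on build GRCm38.p6, from 250 bases before to 50 bases after the start site, written 5′ to 3′ along the gene. Capitals mark the ISRE core, searched on both strands as GAAA, any 2 bases and GAAA again, with overlapping matches joined.
Isg15, chr4:156200769-156201068, minus strand: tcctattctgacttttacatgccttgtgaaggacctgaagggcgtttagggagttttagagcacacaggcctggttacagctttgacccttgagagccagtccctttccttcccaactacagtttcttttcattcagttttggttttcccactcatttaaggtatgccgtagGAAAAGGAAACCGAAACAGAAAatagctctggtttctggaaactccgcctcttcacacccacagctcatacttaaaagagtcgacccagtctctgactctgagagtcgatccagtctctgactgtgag
Ifit1, chr19:34640639-34640938, plus strand: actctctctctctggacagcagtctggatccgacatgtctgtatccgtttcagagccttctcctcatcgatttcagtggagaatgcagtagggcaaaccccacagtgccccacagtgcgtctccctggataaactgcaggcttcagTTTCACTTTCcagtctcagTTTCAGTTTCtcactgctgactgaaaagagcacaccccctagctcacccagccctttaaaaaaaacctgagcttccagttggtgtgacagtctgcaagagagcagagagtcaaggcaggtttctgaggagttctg
Oas3, chr5:120777610-120777909, minus strand: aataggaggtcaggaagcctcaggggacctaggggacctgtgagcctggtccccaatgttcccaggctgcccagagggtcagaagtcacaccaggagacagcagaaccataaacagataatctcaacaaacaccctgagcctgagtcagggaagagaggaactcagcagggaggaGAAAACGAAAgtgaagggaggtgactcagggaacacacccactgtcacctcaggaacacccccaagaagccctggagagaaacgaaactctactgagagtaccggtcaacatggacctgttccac
Irf7, chr7:141266375-141266674, minus strand: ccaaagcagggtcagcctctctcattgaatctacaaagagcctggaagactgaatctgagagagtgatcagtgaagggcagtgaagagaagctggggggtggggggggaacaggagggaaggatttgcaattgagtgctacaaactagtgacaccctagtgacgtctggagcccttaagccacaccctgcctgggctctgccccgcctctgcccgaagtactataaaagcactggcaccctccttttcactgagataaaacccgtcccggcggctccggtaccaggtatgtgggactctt
Ifit2 upstream window, chr19:34550444-34550743, plus strand: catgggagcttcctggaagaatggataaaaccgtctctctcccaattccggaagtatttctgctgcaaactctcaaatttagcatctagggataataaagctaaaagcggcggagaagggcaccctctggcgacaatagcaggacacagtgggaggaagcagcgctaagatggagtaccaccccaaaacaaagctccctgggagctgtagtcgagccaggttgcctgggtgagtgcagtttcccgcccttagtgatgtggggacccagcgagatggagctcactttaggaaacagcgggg
Ifit2 downstream window, chr19:34550838-34551137, plus strand: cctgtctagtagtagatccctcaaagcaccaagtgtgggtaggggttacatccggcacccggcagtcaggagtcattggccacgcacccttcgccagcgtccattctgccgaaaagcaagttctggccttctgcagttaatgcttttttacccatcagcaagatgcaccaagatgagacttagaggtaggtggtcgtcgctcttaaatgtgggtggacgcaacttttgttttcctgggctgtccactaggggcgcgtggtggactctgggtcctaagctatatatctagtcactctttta

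The Isg15 window held 3 overlapping matches, the Ifit1 window 2 and the Oas3 window 1. Neither Ifit2 window and not the Irf7 window held these letters, which says nothing of sites outside the windows or of other spellings. RefSeq windows were at hand for 26 of the 35 members, and 15 of these 26 (57.7%) held at least 1 match in a window, against 1079 of 27025 genes (3.99%). A second list of 63 interferon-stimulated genes had windows for 50, of which 24 (48%) held a match. The GAS element, a site of STAT dimers, was searched as TTCNNNGAA, which is its own reverse complement. It was found for 8 of the 26 members (30.8%), against 9.55% of all genes.

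Libraries held 6708822 to 16030880 counts, and cholangiocyte marker genes summed to between 8424 and 16336 CPM (read counts scaled to the size of the library) in every library. The counts do not read the Jag1 allele, so they give no check of genotype. The list of 7 macrophage genes summed to 10.1 to 40.3 CPM. Of its 2465 reads, 1935 were of Csf1r and 508 of Cd68, the 2 of its genes that passed the filter, while Adgre1 and Clec4f were at 0 in all libraries. The pan-leukocyte gene Ptprc reached at most 0.106 CPM. The list of 6 hepatocyte genes, of which Alb and Ttr passed the filter, summed to 38.6 to 96.5 CPM in Ndr hilar and 2.51 to 21.9 CPM in WT hilar cultures. It summed to 8.87 to 22.0 CPM in Ndr peripheral and 2.33 to 13.9 CPM in WT peripheral cultures, so the Ndr hilar libraries lay above all others. The lymphocyte and plasmacytoid dendritic cell list had 6 of its 8 genes at 0 and 10 reads in all, the endothelial list 12 reads and the fibroblast list 111 reads. A list of 18 proliferation genes ranged from 515 CPM in Ndr hilar 1220 to 3112 CPM in WT hilar 1225. The macrophage sum was highest in Ndr hilar 1224, at 40.3 CPM, and was 12.7 CPM in WT hilar 1223, and the part of these lists in the results below was not tested. In bulk RNA, fewer cells that express a gene and less RNA per cell cannot be told apart.

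RNA of the interferon receptor genes was present in the cultures, and the interferon genes were almost unread. Of 21 interferon genes, 17 had no read in any library. The other 4 had 10 reads together, of which the limitin gene Ifnz had 5, Ifnab 3, Ifnb1 1 and Ifne 1. All 6 receptor genes passed the filter on low counts. Ifnar1, a subunit of the type I receptor, ranged from 57.8 to 132 CPM, and Ifnlr1, the specific subunit of the type III receptor, from 9.70 to 27.0 CPM.

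The 35 members covered a wide range of levels. In TPM, a scale that divides by gene length and allows genes to be compared, Bst2 averaged 139 over the 12 libraries, Ifi27 81.7 and Trim25 44.0. Bst2 encodes tetherin, which holds budding virus at the cell surface, and TRIM25 is the ubiquitin ligase that activates RIG-I. Ifi35, Eif2ak2 (the RNA-activated kinase PKR) and Irf1 followed at 25.4, 25.1 and 24.1 TPM. At the low end were Mx2 at 0.295 TPM and Mx1 at 0.143 TPM, the only members that did not pass the filter, so 33 were tested. Isg15 stood at 12.1 TPM, Irf7 at 6.80 TPM and Ifit1 at 3.69 TPM.

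The members varied together from library to library, and the libraries that were high belonged to different groups. The mean level of the 35 genes, as log2 CPM minus each gene's own mean over the 12 libraries, was -0.28, -1.41 and 1.12 in Ndr hilar 1219, 1220 and 1224, against -0.07, 1.64 and -0.82 in WT hilar 1221, 1223 and 1225. It was -0.83, 0.36 and 0.11 in Ndr peripheral 1219, 1220 and 1224, against 0.90, -0.33 and -0.39 in WT peripheral 1221, 1223 and 1225. Ndr hilar 1224 and WT hilar 1223 were the highest libraries and Ndr hilar 1220 the lowest, and in both regions the genotypes overlapped.

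**Figure D1:**
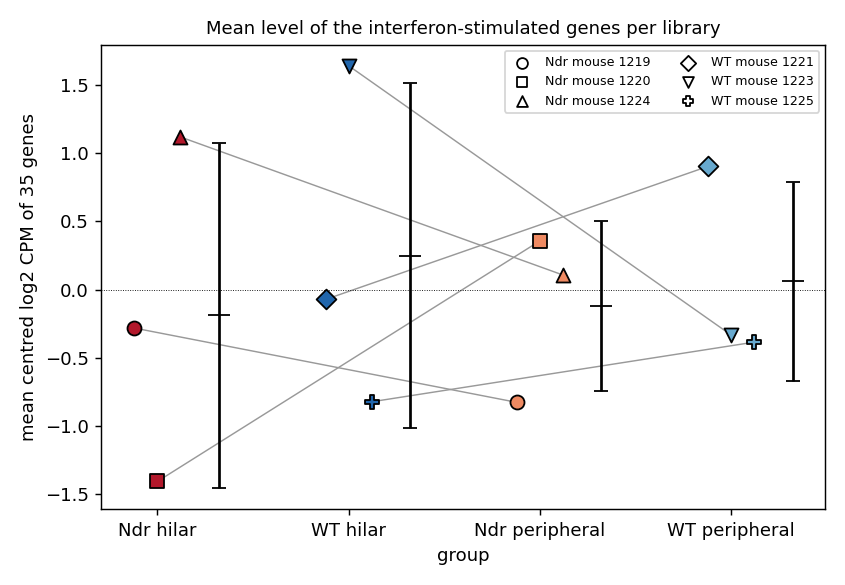
Mean level of the 35 interferon-stimulated genes (y axis, log2 CPM centred per gene) in each library, by group (x axis), with the mean and SD of 3 libraries beside the points and a line joining both cultures of a mouse. The hilar groups spread from -1.41 to 1.12 in Ndr and from -0.82 to 1.64 in WT, and the lines cross.

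The group means were -0.19 ± 1.27 in Ndr hilar and 0.25 ± 1.26 in WT hilar, and -0.12 ± 0.62 in Ndr peripheral and 0.06 ± 0.73 in WT peripheral cultures (SD, n = 3 each). The differences between genotypes, -0.44 in hilar and -0.18 in peripheral cultures, were smaller than the pooled SD within groups of 1.01. Group membership accounted for 4.07% of the variance of the mean level. For single members the median share was 10.1%, against 23.8% for all 15014 genes tested. With groups of 3 libraries even a gene without a group difference has such a share, so neither value measures a group effect. The median SD over the 12 libraries, on the log2 scale, was 1.18 for the tested members against 0.43 for all genes. The genes were not matched for level, and the part of low counts in this difference was not tested. Of the members with the highest mean CPM, Trim25, Irf1, Eif2ak2 and Adar had an SD of 0.35, 0.35, 0.40 and 0.41. Bst2 and Ifi27, also among them, had an SD of 0.79 and 1.05.

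Ndr hilar 1224 was among the 3 highest libraries for 27 of the 35 members, WT hilar 1223 for 31 and WT peripheral 1221 for 21. WT hilar 1223 had the highest value of all libraries for 22 members and stood above the gene's mean for 34. Ndr hilar 1220 was the lowest library for 17 members and WT hilar 1225 for 9. High and low libraries thus occurred in both genotypes, and the other culture of the same mouse lay at 0.11 or below for each of the 3 highest libraries. Hilar minus peripheral, the mean level differed by 0.54 in mouse 1219, -1.76 in mouse 1220 and 1.01 in mouse 1224 (Ndr), and by -0.98 in mouse 1221, 1.98 in mouse 1223 and -0.44 in mouse 1225 (WT). In mouse 1223, 34 of 35 members were higher in the hilar culture, and in mouse 1220, 32 of 35 were lower in it. Because the members varied together, each count describes a single pair of libraries, and the share over all genes was not counted.

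**Figure D2:**
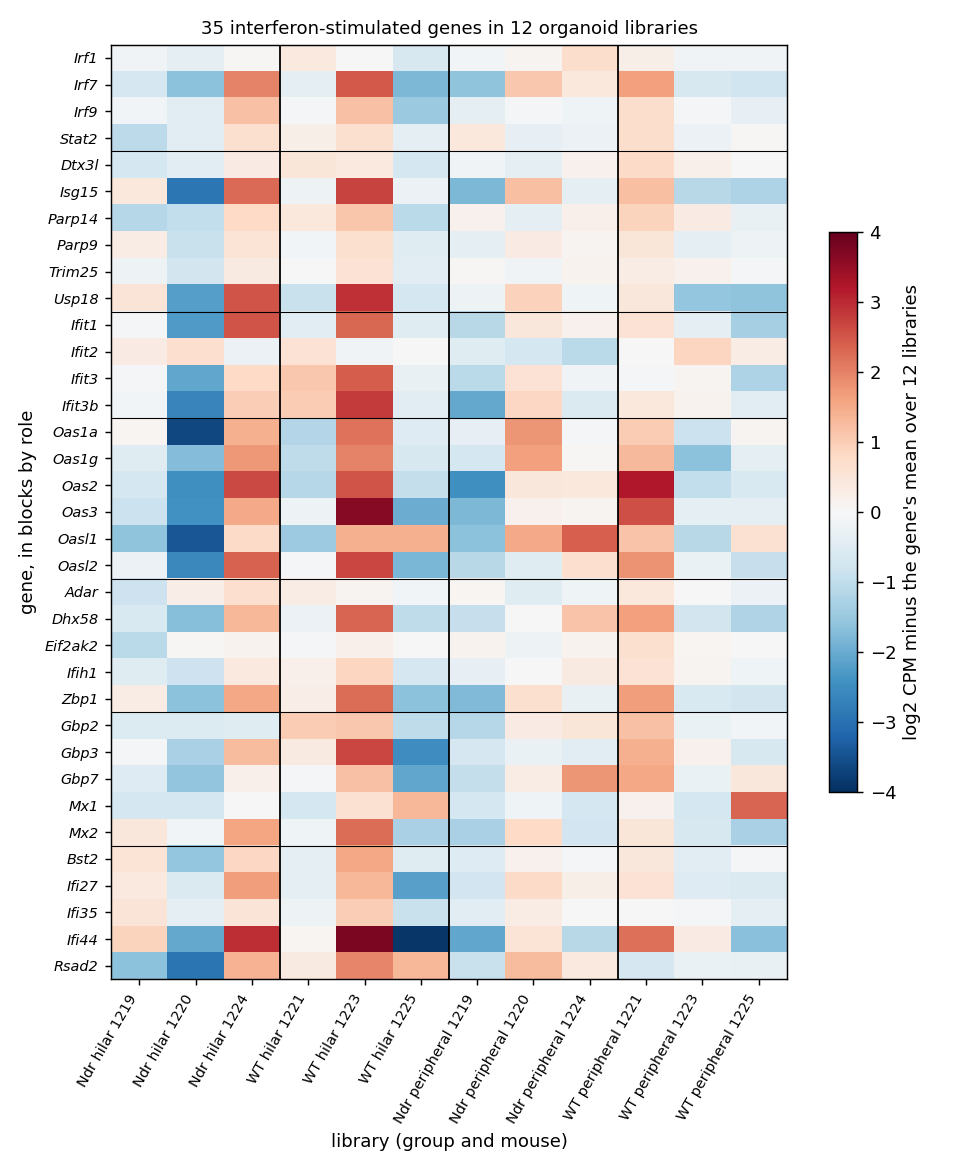
Log2 CPM of each of the 35 genes minus its mean over the 12 libraries (colour scale from -4 to 4), with genes in rows by role and libraries in columns by group and mouse. The columns of Ndr hilar 1224, WT hilar 1223 and WT peripheral 1221 are red in most rows and that of Ndr hilar 1220 is blue, while the rows of Ifit2, Adar and Eif2ak2 do not follow.

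Among the transcription factors, Irf7 (ENSMUSG00000025498), the factor that amplifies interferon production, followed the shared pattern most closely. It stood at 4.35, 2.09 and 28.5 CPM in Ndr hilar 1219, 1220 and 1224, against 5.24, 38.9 and 1.88 CPM in WT hilar 1221, 1223 and 1225. It stood at 2.17, 14.9 and 9.42 CPM in Ndr peripheral 1219, 1220 and 1224, against 22.5, 4.43 and 3.92 CPM in WT peripheral 1221, 1223 and 1225. Each of the 4 groups held both a low and a high library, and the highest library of all was 20.7 times the lowest. Irf9 (ENSMUSG00000002325), a DNA-binding part of the complex with STAT2, was at 22.2, 17.5 and 54.1 CPM in Ndr hilar cultures, against 22.6, 54.2 and 8.29 CPM in WT hilar cultures, in the same order of mice. In peripheral cultures it was at 18.5, 23.2 and 21.0 CPM in Ndr and 38.7, 22.7 and 19.1 CPM in WT. The pair of highest hilar values, in Ndr 1224 and WT 1223, came within 1 CPM of each other across genotypes.

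Stat2 (ENSMUSG00000040033), which brings the activation domain to that complex, was at 15.3, 23.3 and 50.05 CPM in Ndr hilar cultures, against 37.5, 49.1 and 24.1 CPM in WT hilar cultures. It was at 43.0, 25.3 and 26.8 CPM in Ndr peripheral and 51.4, 26.8 and 33.0 CPM in WT peripheral cultures, and the groups overlapped in both regions. Irf1, a factor also induced by interferon gamma, moved little, with 66.2 CPM in Ndr peripheral 1224 as its highest value and 25.9 CPM in WT hilar 1225 as its lowest.

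**Figure D3:**
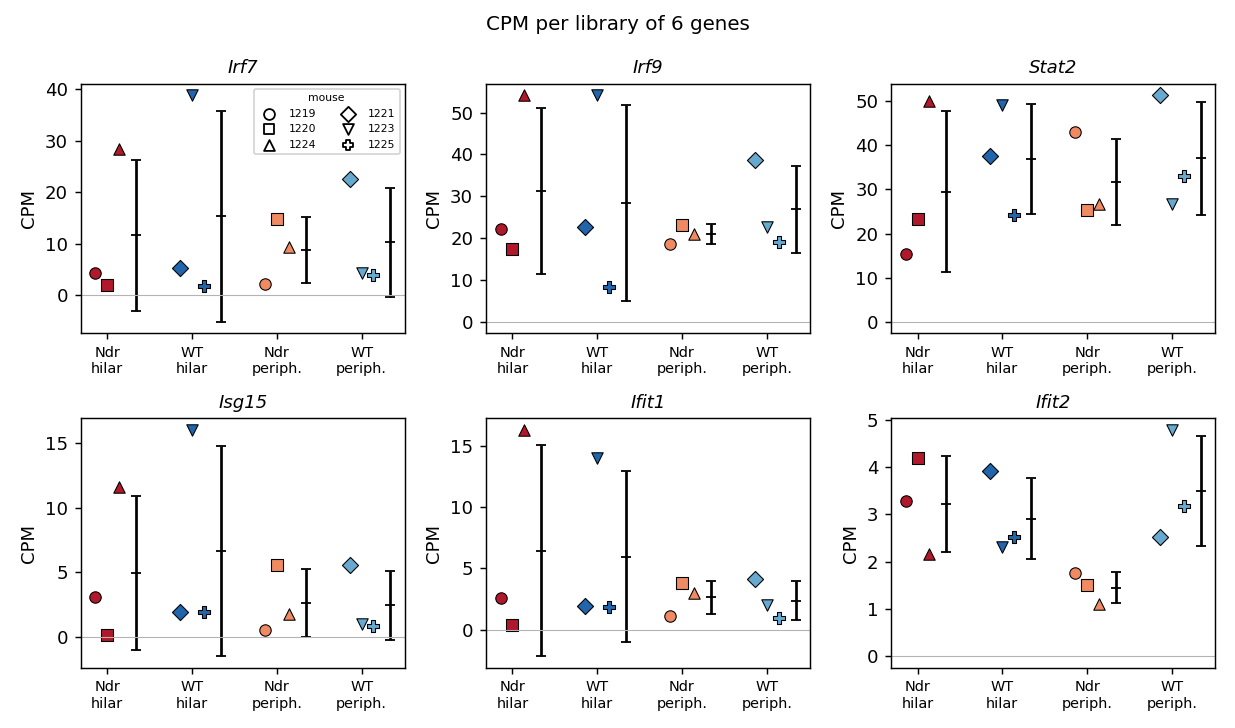
CPM of Irf7, Irf9, Stat2, Isg15, Ifit1 and Ifit2 (y axes) in each library by group (x axes), with the mean and SD of 3 libraries beside the points. Except for Ifit2, the same hilar libraries stand high in each panel, Ndr 1224 and WT 1223, with Irf7 at 28.5 and 38.9 CPM, and for Ifit2 the 3 Ndr peripheral libraries lie below all WT peripheral ones.

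The ISG15 and ubiquitin genes were unlike in their range over the libraries. Isg15 (ENSMUSG00000035692) was at 3.09, 0.131 and 11.6 CPM in Ndr hilar cultures, against 1.95, 16.1 and 1.88 CPM in WT hilar cultures. It was at 0.517, 5.56 and 1.74 CPM in Ndr peripheral and 5.55, 0.957 and 0.848 CPM in WT peripheral cultures. The lowest of these values is a single read, in Ndr hilar 1220. Usp18, the protease that removes ISG15 and restrains the type I receptor, had no read in Ndr hilar 1220 and its highest value, 6.95 CPM, in WT hilar 1223. Trim25 stayed between 64.9 and 159 CPM, a highest-to-lowest ratio of 2.45, and Dtx3l and Parp9, which form a ubiquitin ligase complex, had ratios of 2.80 and 2.98.

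The OAS genes, whose products make oligoadenylates on binding double-stranded RNA, had the widest range of the 7 roles. Their mean centred log2 CPM ran from -2.71 in Ndr hilar 1220 to 2.40 in WT hilar 1223. Oas3 was at 0.774, 0.131 and 4.85 CPM in Ndr hilar cultures, against 1.342, 22.2 and 0.251 CPM in WT hilar cultures. It was at 0.310, 1.79 and 1.74 CPM in Ndr peripheral and 10.4, 1.20 and 1.17 CPM in WT peripheral cultures. Oasl1, which in mice restrains translation of Irf7, departed from the other 5 genes, with its highest value, 18.7 CPM, in Ndr peripheral 1224 and 9.42 CPM in WT hilar 1225. Oas1a and Oas1g are near-identical neighbours, and no source used here says how reads shared between them were counted, so their split is uncertain.

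Ifit1 (ENSMUSG00000034459), which binds viral RNA that lacks a methylated cap, was at 2.61, 0.392 and 16.3 CPM in Ndr hilar cultures, against 1.95, 14.1 and 1.88 CPM in WT hilar cultures. It was at 1.14, 3.77 and 3.02 CPM in Ndr peripheral and 4.12, 2.03 and 0.954 CPM in WT peripheral cultures. Both hilar groups held 1 library several times above the others. Its relatives Ifit3 and Ifit3b are near-identical in sequence and are uncertain for the same reason as the Oas1 genes.

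Among the sensors, Ifih1 (MDA5) and Dhx58 (LGP2) followed the shared pattern, at 14.1 to 45.4 CPM and 0.392 to 9.58 CPM. Adar, the RNA-editing enzyme, and Eif2ak2 were abundant and did not follow that pattern. They ranged from 24.4 to 70.1 CPM and from 24.8 to 83.1 CPM, and both were lowest in Ndr hilar 1219. Zbp1, a sensor of Z-form nucleic acid, was highest in WT hilar 1223 at 4.63 CPM. The GTPases Gbp2, Gbp3 and Gbp7 stayed under 8 CPM in every library. Of the membrane and other effectors, Bst2 reached 142 CPM in WT hilar 1223 and Ifi27 136 CPM in Ndr hilar 1224, against lowest values of 16.6 CPM in Ndr hilar 1220 and 9.29 CPM in WT hilar 1225. Ifi44 spanned the widest range, from no read in WT hilar 1225 to 40.8 CPM in WT hilar 1223.

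The likeness of each member to the others was described by Pearson's r of its log2 CPM with the mean of the other members over the 12 libraries. These points share 6 mice, and the genes compared share libraries and depth, so the values are descriptions. Irf7 had the highest r at 0.97, followed by Oas3 (0.97), Oasl2 (0.96), Zbp1 (0.95) and Dhx58 (0.93). Of the 33 tested members 21 had r of at least 0.8, against 42 of all 15014 genes (0.280%), these members included. Genes outside the members were compared with the mean of all members. The median over 528 member pairs was 0.68. At the other end were Irf1 (0.49), Eif2ak2 (0.28), Adar (0.26) and Ifit2, whose r was -0.35. Ifit2 was the only member with a negative r, and Ifit1, of the same family, had 0.93. Members with an ISRE match in their window had a median r of 0.86 (n = 15) and those without had 0.78 (n = 11), and both ranges were wide, 0.28 to 0.97 and -0.35 to 0.97.

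Outside the 35, the genes most like the mean level included Rtp4 (r = 0.96), Xaf1 (0.96), Ddx60 (0.91), Gm20568 (0.91), Apol9a (0.90), 1110038B12Rik (0.88), Cmpk2 (0.87), Kyat1 (0.87) and Apol9b (0.85). Of these, Rtp4, Xaf1, Ddx60 and Cmpk2 are on the second list of interferon-stimulated genes, which gave 4 of the first 10 and 11 of the first 50 among 14410 genes ranked. Rtp4 was at 5.80, 0.784 and 23.1 CPM in Ndr hilar cultures, against 4.70, 29.0 and 0.879 CPM in WT hilar cultures, with Ndr 1224 and WT 1223 the highest as for Irf7. The 52 tested genes of that list had a median r of 0.59, and the 7 tested genes of MHC class I antigen presentation one of 0.54. For the 6 receptor genes it was 0.54, for 11 sensors and adaptors 0.18, for 18 proliferation genes -0.23, for 8 cholangiocyte genes -0.17 and for all tested genes -0.03. For the kinase genes Jak2, Tyk2 and Jak1, r was 0.28, 0.10 and -0.15.

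In hilar cultures the data show no member that differed between Ndr and WT beyond the spread of the libraries. By edgeR's quasi-likelihood test 0 of 33 members and 0 of 15014 genes (0%) passed an adjusted p of 0.05. At an unadjusted p under 0.05 there were 0 members, against 6.54% of all genes. DESeq2 called 45 genes and limma-voom 0, none of them members. The median log2 difference of the members was -0.36, with 8 positive and 25 negative, against -0.005 for all genes. The median standard error was 1.03 for members and 0.35 for all genes, so a member had to differ by far more than another gene to be called. In the same comparison 0 of 18 proliferation genes had a positive difference, with a median of -1.60. Their summed CPM was 864, 515 and 547 in Ndr hilar 1219, 1220 and 1224. In WT hilar 1221, 1223 and 1225 it was 855, 545 and 3112, so the groups overlapped and only WT 1225 lay above all Ndr libraries. At an unadjusted p under 0.05, 8 of these genes were lower, where 6.54% of all genes passed in either direction. The 2 tested hepatocyte genes had a median of 2.54, with 1 higher at that p. By edgeR none of these was called after adjustment, and their part in the members' values was not tested.

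The members with the smallest p were Gbp2, Ifit3 and Ifit3b. Gbp2 (ENSMUSG00000028270), a GTPase that attacks vacuoles holding pathogens, was at 1.84, 1.83 and 1.92 CPM in Ndr hilar 1219, 1220 and 1224, against 5.79, 6.02 and 1.26 CPM in WT hilar 1221, 1223 and 1225. The Ndr values were close together and WT 1225 lay below them, so the groups overlapped. The log2 difference was -1.23 (SE 0.65, edgeR adjusted p = 0.75). Ifit3 (ENSMUSG00000074896) was at 1.64, 0.261 and 3.19 CPM in Ndr hilar cultures, against 3.90, 10.2 and 1.38 CPM in WT hilar cultures. Its difference was -1.58 (SE 0.87, edgeR adjusted p = 0.76). Ifit3b, with which it may share reads, was at 0.967, 0 and 2.30 CPM in Ndr hilar cultures, against 2.38, 8.65 and 0.754 CPM in WT hilar cultures. The groups overlapped for both genes, and the difference of Ifit3b was -1.82 (SE 1.16, edgeR adjusted p = 0.80). No member had every Ndr hilar library on 1 side of every WT hilar library, against 4.57% of genes above and 4.18% below. Without Ndr hilar 1224 the median of the members was -1.62, and without WT hilar 1223 it was 0.70, so 1 library decided its sign.

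In peripheral cultures edgeR also called 0 of 33 members and 0 of 15014 genes (0%), DESeq2 called 9 genes and limma-voom 0, none of them members. The median log2 difference of the members was -0.17, with 13 positive and 20 negative, against 0.03 for all genes. It was 0.11 without Ndr peripheral 1219 and 0.36 without WT peripheral 1221. At an unadjusted p under 0.05 there was 1 member, Ifit2, against 2.92% of all genes.

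Ifit2 (ENSMUSG00000045932), which encodes an RNA-binding antiviral protein, was at 1.76, 1.51 and 1.10 CPM in Ndr peripheral 1219, 1220 and 1224, against 2.52, 4.78 and 3.18 CPM in WT peripheral 1221, 1223 and 1225. Every Ndr peripheral library lay below every WT peripheral library, as for 3.61% of all genes, and Ifit2 was the only member of which this held. No member had every Ndr peripheral library above every WT peripheral library, as 5.41% of genes had. The log2 difference was -1.26 (SE 0.42, unadjusted p = 0.012, edgeR adjusted p = 1.0), so it did not pass the threshold over all genes. In hilar cultures Ifit2 was at 3.29, 4.18 and 2.17 CPM in Ndr and 3.90, 2.32 and 2.51 CPM in WT, and the groups overlapped. These values rest on 12 to 17 reads in Ndr peripheral libraries and 30 to 40 in WT peripheral libraries. Dtx3l (ENSMUSG00000049502) was next, at 25.3, 21.6 and 31.3 CPM in Ndr peripheral and 47.1, 31.9 and 27.2 CPM in WT peripheral cultures, with a difference of -0.44 (SE 0.36, edgeR adjusted p = 1.0). Oas2 (ENSMUSG00000032690) was at 0, 1.32 and 1.28 CPM in Ndr peripheral and 10.2, 0.359 and 0.530 CPM in WT peripheral cultures, and without WT peripheral 1221 its difference had the other sign.

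**Figure D4:**
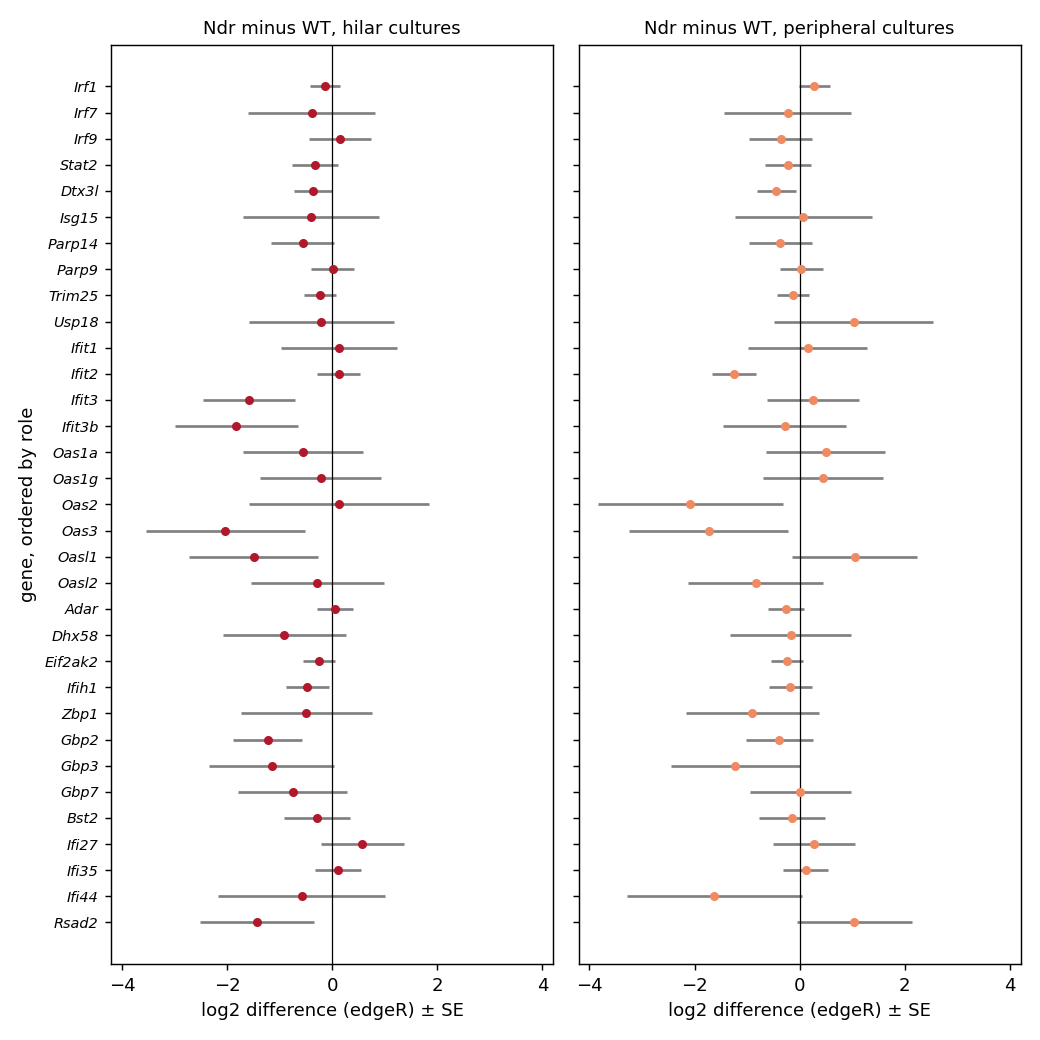
Log2 difference Ndr minus WT (x axis, edgeR, with standard error bars) for the 33 tested genes (y axis, by role) in hilar cultures (left) and peripheral cultures (right). Most bars cross 0, and Ifit2 in peripheral cultures, at -1.26, has the bar farthest from 0 for its length.

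Summed over both cultures of a mouse, which makes the mouse the unit of genotype, 0 of 33 members and 0 of 15401 genes (0%) passed in edgeR, with 0 members at an unadjusted p under 0.05 against 5.42% of genes. DESeq2 called 126 genes and limma-voom 0, none of them members. The median log2 difference of the members was -0.26, with 9 positive and 24 negative, against -0.004 for all genes. Ifit2 was at 2.501, 2.57 and 1.55 CPM in Ndr mice 1219, 1220 and 1224, against 3.36, 3.71 and 2.91 CPM in WT mice 1221, 1223 and 1225. Every Ndr mouse lay below every WT mouse, as for 5.78% of genes, and the log2 difference was -0.59 (SE 0.31, edgeR adjusted p = 0.90). No member had every Ndr mouse above every WT mouse, as 5.49% of genes had. Oas3 (ENSMUSG00000032661) was at 0.539, 1.07 and 3.05 CPM in Ndr mice and 5.21, 10.4 and 0.758 CPM in WT mice, so the genotypes overlapped. Ifit3b (ENSMUSG00000062488) was at 0.539, 1.18 and 1.3399 CPM in Ndr mice and 2.04, 4.45 and 0.758 CPM in WT mice, which overlapped as well. The difference was -1.81 (SE 0.97) for Oas3 and -1.23 (SE 0.67) for Ifit3b, both at an edgeR adjusted p of 0.90.

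Between regions, the Ndr cultures gave 0 of 33 members and 0 of 15014 genes (0%) past the threshold in edgeR, 79 genes in DESeq2 and 0 in limma-voom, none of them members. The median hilar minus peripheral log2 difference of the members was 0.20, with 19 positive and 14 negative, against -0.013 for all genes. Without Ndr hilar 1224 the median of the members was -0.67. Ifit2 was again the 1 member at an unadjusted p under 0.05, against 10.3% of genes, with every Ndr hilar library above every Ndr peripheral library, as for 7.49% of genes. No member had the opposite order, which 7.93% of genes had. Its difference was 1.14 (SE 0.42, edgeR adjusted p = 0.43). This comparison shares the Ndr peripheral libraries with the genotype comparison above, so the low Ifit2 values there enter both. Oasl1 (ENSMUSG00000041827) was at 0.967, 0.131 and 5.87 CPM in Ndr hilar and 0.930, 9.997 and 18.7 CPM in Ndr peripheral cultures, with a difference of -2.09 (SE 1.24, edgeR adjusted p = 0.60). Irf1 (ENSMUSG00000018899) was at 36.8, 30.4 and 42.0 CPM in Ndr hilar and 37.4, 43.2 and 66.2 CPM in Ndr peripheral cultures, and each Ndr mouse had the lower value in its hilar culture. Its difference was -0.43 (SE 0.29, edgeR adjusted p = 0.67). Of 18 proliferation genes 18 had a negative difference, with a median of -1.64, and 10 had an unadjusted p under 0.05. The 2 tested hepatocyte genes had a median of 2.48. By edgeR none of these was called after adjustment, and their part in the members' values was not tested.

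In WT cultures edgeR called 0 of 33 members and 0 of 15014 genes (0%), and DESeq2 and limma-voom called 0 genes. At an unadjusted p under 0.05 there were 0 members, against 0.506% of genes. The median of the members was 0.44, with 25 positive and 8 negative, against 0.028 for all genes. Without WT hilar 1223 the median of the members was -0.39. Rsad2 (ENSMUSG00000020641), which encodes the antiviral enzyme viperin, was at 1.77, 5.72 and 3.64 CPM in WT hilar 1221, 1223 and 1225, against 0.756, 1.08 and 1.06 CPM in WT peripheral cultures. Every WT hilar library lay above every WT peripheral library, as for 2.94% of genes, and the difference was 1.92 (SE 1.10, edgeR adjusted p = 1.0). No member had the opposite order, which 2.6% of genes had. In Ndr the order of Rsad2 was not the same, with 0.290, 0 and 3.83 CPM in hilar and 0.620, 3.49 and 1.83 CPM in peripheral cultures. Ifit3 was at 3.90, 10.2 and 1.38 CPM in WT hilar and 1.68, 1.91 and 0.636 CPM in WT peripheral cultures. Usp18 (ENSMUSG00000030107) was at 0.305, 6.95 and 0.377 CPM in WT hilar and 1.09, 0.120 and 0.106 CPM in WT peripheral cultures. Both overlapped between regions. The difference was 1.85 (SE 0.88) for Ifit3 and 2.37 (SE 1.51) for Usp18, both at an edgeR adjusted p of 1.0, and that of Usp18 had the other sign without WT hilar 1223.

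Over both genotypes the median hilar minus peripheral difference of the members was 0.33, with 23 positive and 10 negative, against 0.015 for all genes. By edgeR 0 of 33 members and 0 of 15014 genes (0%) were called. At an unadjusted p under 0.05 there were 0 members against 6.07% of genes, and DESeq2 called 7 genes and limma-voom 0, none of them members. No member had all 6 hilar libraries above or all below the 6 peripheral ones, as 0.0533% and 0.0599% of genes had. Usp18 had the smallest p. In Ndr it was at 1.16, 0 and 5.23 CPM in hilar and 0.620, 1.60 and 0.640 CPM in peripheral cultures, so the regions overlapped in both genotypes. Its difference was 1.76 (SE 1.03, edgeR adjusted p = 0.87), followed by Ifit1 at 1.29 (SE 0.80) and Ifit2 at 0.45 (SE 0.29). In a fit that keeps each mouse as a block, the median was 0.08, with 0.11 within Ndr and -0.05 within WT. By limma-voom the median was negative in all of these, -0.18 in Ndr, -0.08 in WT and -0.13 over both, so the direction of the members by region depended on the method.

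The test of whether the genotype difference itself differed between regions called 0 of 33 members and 0 of 15014 genes (0%) in edgeR, 4 genes in DESeq2 and 0 in limma-voom, none of them members. Ifit2 was the only member at an unadjusted p under 0.05, against 3% of genes, with an interaction of 1.38 (SE 0.58, edgeR adjusted p = 0.99). Its genotype difference was 0.13 in hilar and -1.26 in peripheral cultures. Rsad2 had an interaction of -2.46 (SE 1.54) and Oasl1 of -2.54 (SE 1.70), both at an edgeR adjusted p of 0.99. In WT, Oasl1 was at 1.10, 9.27 and 9.42 CPM in hilar and 7.65, 1.44 and 5.19 CPM in peripheral cultures. The median over the members was -0.14, against -0.045 for all genes, and that of the members ranged from -0.95 to 0.73 when single libraries were left out.

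The upstream genes of the pathway were described beside the members. In the mouse totals 0 of 6 receptor genes, 1 of 3 JAK kinase genes, 1 of 11 sensors and adaptors and 0 of 5 feedback genes had an unadjusted p under 0.05, against 5.42% of all genes, and edgeR called none of them after adjustment. Jak2, the kinase of the interferon gamma and many cytokine receptors, was at 49.4, 50.8 and 56.7 CPM in Ndr hilar cultures, against 91.1, 92.4 and 58.0 CPM in WT hilar cultures. In peripheral cultures it was at 80.4, 51.2 and 78.6 CPM in Ndr and 105, 93.7 and 105 CPM in WT. In each region every Ndr library lay below every WT library, as for 4.18% of genes in hilar and 3.61% in peripheral cultures. These shares are for each region alone, the same mice gave both cultures, and the share for both regions together was not counted. The Jak2 difference over mouse totals was -0.59 (SE 0.15, edgeR adjusted p = 0.76). Ikbke, a kinase that activates IRF3 and IRF7, had a difference of -0.59 (SE 0.15, edgeR adjusted p = 0.76). It was at 64.7, 33.1 and 52.2 CPM in Ndr hilar cultures, against 98.1, 120 and 74.0 CPM in WT hilar cultures, without overlap, as for 4.18% of genes. In peripheral cultures it was at 74.5, 70.4 and 81.6 CPM in Ndr and 115, 70.6 and 100.1 CPM in WT, and the groups overlapped. Socs1, which inhibits JAK kinases, was at 0.580, 0.522 and 0.255 CPM in Ndr hilar and 1.342, 2.16 and 1.005 CPM in WT hilar cultures, without overlap, as for 4.18% of genes, on few reads. In peripheral cultures Socs1 was at 1.03, 1.04 and 1.46 CPM in Ndr and 1.85, 0.478 and 1.27 CPM in WT, and the groups overlapped. Tyk2, a kinase of the type I receptor, was at 15.2, 23.3 and 32.3 CPM in Ndr hilar and 51.7, 34.4 and 47.0 CPM in Ndr peripheral cultures, without overlap, as for 7.93% of genes. Its hilar minus peripheral log2 difference was -0.91 (SE 0.28, edgeR adjusted p = 0.42).

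The organoid lines were started on 4 days in June, and the dates do not cross with genotype. Both mice of 15 June were WT (1221 and 1223), mouse 1219 of 17 June and mouse 1220 of 18 June were Ndr, and only 21 June held both genotypes, in Ndr mouse 1224 and WT mouse 1225. On that date the mean level was 1.12 in Ndr hilar 1224 and -0.82 in WT hilar 1225, and 0.11 in Ndr peripheral 1224 and -0.39 in WT peripheral 1225, with 1 mouse of each genotype and no test. The within-date difference was therefore positive in both regions, while the difference over all mice was negative. A fit of the mouse totals with date as a factor, whose genotype term rests on these 2 mice and which has 1 residual degree of freedom, gave a median of 1.09 with 32 of 33 members positive. In it edgeR called 0 members and 7 genes. Outside 21 June, date and genotype cannot be told apart.

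A second table deposited by the authors gives normalized values, and in it the members point the other way. Dividing each column by its smallest step gave whole reads for 100% of values within 0.01, but these recovered reads equalled the raw counts in 43.1% of cells only. Adjusting the raw counts for derivation date with ComBat-seq, with genotype kept, gave the recovered read in 99.4% of cells, a step that neither the labels nor the headers record. Irf7 had 45 raw reads and 324 recovered reads in Ndr hilar 1219, and 252 raw reads and 76 recovered reads in WT hilar 1223. Mx2 had 5, 2 and 10 raw reads in Ndr hilar cultures and 456, 42 and 299 recovered reads. In WT hilar cultures it had 4, 14 and 0 raw reads and 1, 2 and 0 recovered reads.

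On the recovered reads the mean level was 1.21, -0.56 and 1.37 in Ndr hilar 1219, 1220 and 1224, against -1.48, 0.68 and -0.75 in WT hilar 1221, 1223 and 1225. It was 0.06, 1.46 and 0.34 in Ndr peripheral cultures, against -0.40, -1.68 and -0.25 in WT peripheral cultures, where every Ndr library now lay above every WT library. The median log2 difference in mouse totals was 1.15, with 33 of 34 members positive, against -0.26 on raw counts. Called by edgeR were 26 of 34 members, 25 higher in Ndr and Ifit2 lower. So were 6753 of 15698 genes (43%), 20.5% as higher in Ndr and 22.5% as lower. Mx2, which did not pass the filter on raw counts, is counted among the 34, the positive members and the called ones. It had 456, 42 and 299 recovered reads in Ndr hilar, 0, 280 and 1 in Ndr peripheral and at most 2 in any WT library. It passed the filter through the Ndr libraries alone, so its sign and call add no support. Irf7 differed by 2.63 (SE 0.28, edgeR adjusted p = 0.0012) and Oasl2 by 3.06 (SE 0.30, edgeR adjusted p = 0.00097). Within hilar cultures the median was 0.84 and within peripheral cultures 1.44, with 0 members called in either. The tests took the recovered reads as 6 independent mouse totals and did not count the date adjustment. Only 21 June held both genotypes, so an adjustment that keeps genotype sets the genotype difference from mice 1224 and 1225. The SE and adjusted p-values on these reads are therefore not valid measures of the spread between mice. On raw counts the SE of Irf7 in mouse totals was 0.76. The part of the date adjustment in these calls was not tested. Ifit2 had the same sign in both tables, with a log2 difference of -0.59 on raw counts, which was not called. On recovered reads the difference was -0.91 (SE 0.10, edgeR adjusted p = 0.0014), where 22.5% of all genes were called lower. Both tables come from the same libraries, so the shared sign is not independent support.

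**Figure D5:**
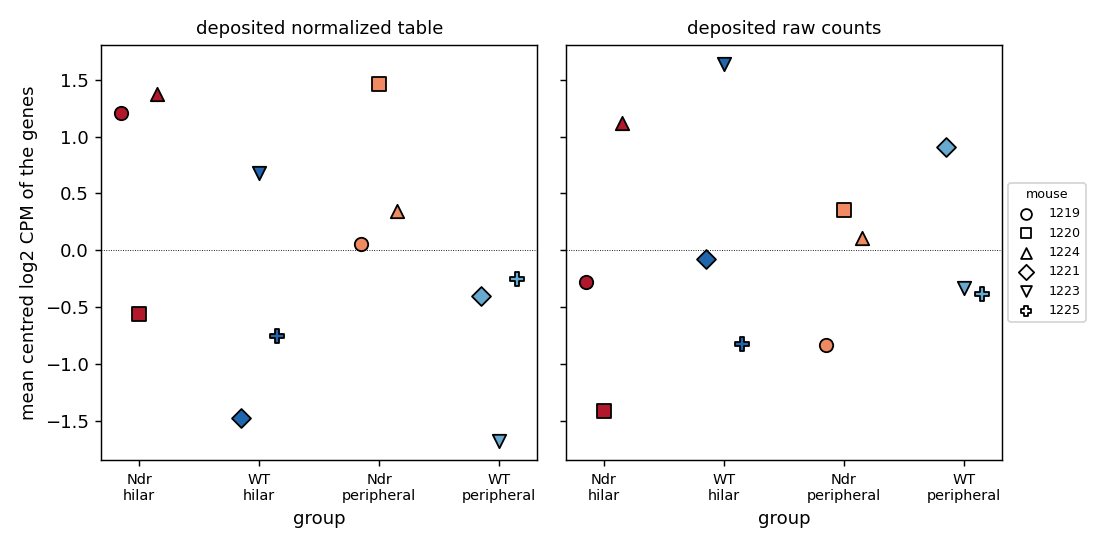
Mean centred log2 CPM of the interferon-stimulated genes (y axes) by group (x axes) from the authors' normalized table (left, recovered reads) and from the raw counts (right), 1 point per library with the mouse as the symbol. In peripheral cultures the Ndr points lie above all WT points on the left, at 0.06 to 1.46 against -1.68 to -0.25, and overlap with them on the right.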

How the data were processed

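RNA was sequenced from 12 organoid cultures of 6 mice (TruSeq libraries sequenced on a NextSeq, per the labels' protocols). The authors deposited raw read counts per gene, made with featureCounts on GRCm39, and a normalized table (signal), with DESeq2 1.34.0 among the tools, per the submitters' processing notes. Aligner, annotation, strand setting and the handling of shared reads: not given in the sources used here, so near-identical and overlapping genes are uncertain.

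Tests on the counts used edgeR 4.0.16 in R 4.3.3 (robust quasi-likelihood F test after filterByExpr and TMM scaling), with 1 coefficient per group over 12 libraries (8 residual degrees of freedom), and over 6 mouse totals for genotype (4). Adjusted p-values are Benjamini-Hochberg over all genes tested, with a threshold of 0.05. CPM use TMM library sizes, log2 CPM a prior count of 2, and TPM exon lengths from GENCODE M21. With 3 against 3, the smallest two-sided p of an exact permutation test is 0.1. Alternatives used DESeq2 1.42.0, limma 3.58.1 (voom) and, for the check of the normalized table, sva 3.50.0. The procedures were run on simulated data with large changes in well-read genes and libraries drawn independently. That says nothing of their power for members with few reads or a wide spread. Gene names came from GENCODE M21 on GRCm38, which matched 52093 of 53700 identifiers, and promoters from RefSeq.

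The members and lists were chosen with earlier results of these data known. Values in every library are given for Isg15, Irf7, Stat2, Irf9 and Ifit1, and in each comparison for the 3 tested members with the smallest p, among members whose higher group averaged 1 CPM or more. Outside them the rule names the 10 genes most like the member level and up to 2 genes per pathway list. A result for 1 gene is not reported here. Other genes were named after their values were seen. Per the labels, a mouse number marks 1 animal, which pairs its hilar culture with its peripheral one. Their deviations from the group means correlated at -0.31, -0.34 and 0.14 (Ndr mice 1219, 1220 and 1224) and at 0.33, -0.06 and 0.45 (WT mice 1221, 1223 and 1225).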

Additional observations from a re-analysis of the deposited data

How the results depend on the processing

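On the deposited counts 0 members were called in any comparison under any normalization, filter, tool or omission of a library tried. With reads recovered from the normalized table, 26 members were called in mouse totals, Mx2 among them, by a test that does not count the date adjustment. The median difference of the members was then 0.84 in hilar cultures, 1.44 in peripheral cultures and 1.15 in mouse totals. There the log2 differences of Gbp2 (0.35), Ifit3 (0.27) and Ifit3b (0.12) in hilar cultures had the other sign, as did those of Dtx3l (0.38) and Oas2 (1.55) in peripheral cultures and of Oas3 (1.82) and Ifit3b (0.75) in mouse totals. Genes called were then 1514 (hilar), 126 (peripheral), 30 (region in Ndr), 5 (region in WT) and 6753 (mouse totals). With derivation date as a factor, mouse totals gave 7 genes, a member median of 1.09, Oas3 at 2.002 and Ifit3b at 0.82. Without the low-count filter they gave 5 genes. DESeq2 called 45 genes (hilar), 9 (peripheral), 79 (region in Ndr), 7 (region over both), 4 (interaction) and 126 (mouse totals). The causes of these differences were not tested.

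Leaving out 1 library or mouse gave 0 to 2 genes in peripheral cultures (2 without Ndr peripheral 1219), 0 to 7 for region in Ndr (7 without the same library) and 0 to 4 in mouse totals (4 without Ndr mouse 1219). The median of the members ranged from -1.62 to 0.70 in hilar cultures, from -0.35 to 0.36 in peripheral cultures, from -0.67 to 0.60 for region in Ndr, from -0.39 to 1.09 for region in WT and from -0.69 to -0.05 in mouse totals. Oas2 ranged from -2.64 to 0.95 in peripheral cultures, where it was positive without WT peripheral 1221, and Usp18 from -0.45, without WT hilar 1223, to 4.30 for region in WT.

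With the mouse as a replicate block the member medians were 0.11 (region in Ndr), -0.05 (region in WT), 0.08 (both) and -0.11 (interaction), with 0 members and 0 genes called in each, so the block changed no call. Usp18 did not pass the filter in the fit of the WT groups alone. The mean level kept its differences within the spread of libraries under another prior count, the median over members, unscaled library totals and tested members only. Of the 35 members, 19 had under 1 CPM in at least 1 library.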

Other observations

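Of the 52 tested genes of the second list of interferon-stimulated genes, edgeR called 0 after adjustment by genotype or region. By genotype 1 had an unadjusted p under 0.05 as higher in Ndr mice and 1 as lower, against 5.42% of all genes. They were Ifi27l2b, at a log2 difference of 2.33 (SE 0.77, edgeR adjusted p = 0.87), and Slfn2, at -0.61 (SE 0.18, edgeR adjusted p = 0.80). Over both genotypes 3 were higher and 1 lower in hilar cultures at an unadjusted p under 0.05, against 6.07% of all genes, and within Ndr 3 were higher and 2 lower, against 10.3%. Tgtp2, a GTPase of the IRG family, was at 4.64, 4.96 and 5.36 CPM in Ndr hilar cultures, against 0.930, 1.04 and 1.37 CPM in Ndr peripheral cultures, without overlap, as for 7.49% of genes. In WT it was at 3.48, 4.63 and 0.126 CPM in hilar and 1.85, 0.837 and 0.318 CPM in peripheral cultures, and its difference over both genotypes was 1.78 (SE 0.61, edgeR adjusted p = 0.79). Tgtp1 and Tgtp2 are near-identical, so the split between them is uncertain. Samd9l had a difference of the opposite sign (-0.97, SE 0.33, edgeR adjusted p = 0.79), at 68.3 ± 27.5 CPM in Ndr hilar and 142 ± 64.5 CPM in Ndr peripheral cultures, and 104 ± 39.5 CPM in WT hilar and 192 ± 94.6 CPM in WT peripheral cultures (SD, n = 3 each).

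The antigen presentation genes of MHC class I followed the members only in part. Their sum was 582 CPM in Ndr hilar 1224, where the 35 members were high, against 981 CPM in WT hilar 1223 and 252 CPM in WT hilar 1225, the highest and the lowest of the 12 libraries. Of the 76577 reads in this sum, 56667 were of B2m. As mean centred log2 CPM of the 7 tested genes, Ndr peripheral 1224 was highest at 0.76 and WT hilar 1223 stood at 0.63. By that measure Ndr hilar 1224 stood at -0.15 and WT hilar 1225 was lowest at -1.13. The sum of the proliferation genes did not follow the members in every library: Ndr hilar 1220 had the lowest proliferation sum and the lowest mean level of the members, 515 CPM and -1.41, while WT hilar 1225 had the highest proliferation sum, 3112 CPM, and a mean level of -0.82.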
